A study of Mus musculus with 24 samples.

Results

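The comparison is of RNA from 6 libraries labelled PV with RNA from 6 libraries labelled EXC, which are 12 of the 24 libraries of a series on neuronal subtypes sorted from adult mouse cortex. All libraries carrying either label were taken. Tissue was dissociated with papain, and live cells that excluded the dye DAPI and carried GFP or tdTomato were sorted by fluorescence. The labels say that the fluorescent protein depended on the transgenic reporter line, but name no line, promoter or driver, no genotype beyond that and no age other than adult. They spell out neither PV nor EXC. By the usual naming, PV stands for parvalbumin-positive interneurons and EXC for excitatory neurons. The PV group holds 3 male and 3 female libraries, all sequenced in POOL6188. The EXC group holds 4 male and 2 female libraries, 5 of them in POOL6188 and replicate 3 alone in POOL7099. The labels do not say whether libraries came from separate animals or from pooled ones, so the p-values below measure only the spread between these samples, which may be technical. Replicate numbers follow the order of deposition and pair nothing.

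Parvalbumin-positive interneurons are GABA-releasing cells that fire at high rates, inhibit the cell bodies and axon initial segments of their neighbours, and arise in the medial ganglionic eminence of the embryonic forebrain. Excitatory neurons release glutamate, are born in the dorsal forebrain, project over longer distances and receive much of their input on dendritic spines. High-rate firing depends on potassium channels that close quickly, on rapid calcium-triggered release and on a large supply of ATP, and many of the wrapping structures called perineuronal nets surround parvalbumin cells.

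PV libraries held between 1548907 and 4653119 reads assigned to genes, and EXC libraries between 4370732 and 8504337. Reads from the mitochondrial genome made up 14.4% to 52.9% of each PV library and 3.84% to 9.86% of each EXC library. PV replicate 6 had the fewest reads and the largest mitochondrial share, and PV replicate 5 the most reads and the smallest share among the PV libraries. EXC replicate 3 stood apart from the other EXC libraries in its pool, and EXC replicates 2 and 6 in their oligodendrocyte genes. Levels are given as CPM (read counts scaled to a common library size) after scaling by the trimmed mean of M-values (TMM), log2 fold changes are PV over EXC ± SE, and adjusted p is from edgeR's quasi-likelihood test with Benjamini-Hochberg adjustment over all genes tested and a threshold of 0.05. In bulk samples, fewer cells of a type and less RNA per cell cannot be told apart.

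The 2 genes that name the sorts separated the groups. Pvalb (chromosome 15), which encodes the calcium buffer parvalbumin, had a lowest, median and highest level of 164, 180 and 203 CPM in PV libraries, against 0.479, 1 and 2.6 CPM in EXC libraries. Slc17a7 (chromosome 7), the vesicular glutamate transporter of cortical excitatory neurons, had 8.6, 17.4 and 25.3 CPM in PV libraries, against 159, 506 and 732 CPM in EXC libraries. Neither gene overlapped between the groups, and the EXC library with the least Slc17a7 was replicate 3. The log2 fold change was 7.30 ± 0.31 for Pvalb (edgeR adjusted p = 4.98e-10) and -4.79 ± 0.35 for Slc17a7 (edgeR adjusted p = 5.2e-08).

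Some genes listed for other interneuron classes had reads in both sorts, which does not by itself show that cells of those classes were present. Of 8 tested SST genes, 2 were higher and 2 lower in PV, and of 7 tested LAMP5 and neurogliaform genes, 2 were higher and 4 lower. The 13 VIP genes summed to between 99.56 and 184.6 CPM in PV libraries and between 201.7 and 491.1 CPM in EXC libraries, without overlap, and the 3 that could be tested were lower in PV. Most of the 13 were too low to test here, while 12 could be tested in the fit of all 24 libraries. Chat, on that list, had no read in any PV library. Sst, the somatostatin gene of another interneuron class from the same embryonic origin, ranged from 8.97 to 120 CPM in PV libraries and from 6.49 to 65.7 CPM in EXC libraries. The groups overlapped, and the difference did not pass the test (log2 fold change 1.21 ± 0.67, edgeR adjusted p = 0.167). The log2 fold change was 0.32 without PV replicate 4, which was highest, and 1.80 without EXC replicate 4, where it passed (edgeR adjusted p = 0.0312). Vip was too low to be tested, with at most 1.13 CPM in any PV library and 5.19 CPM in any EXC library.

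**Figure D1:**
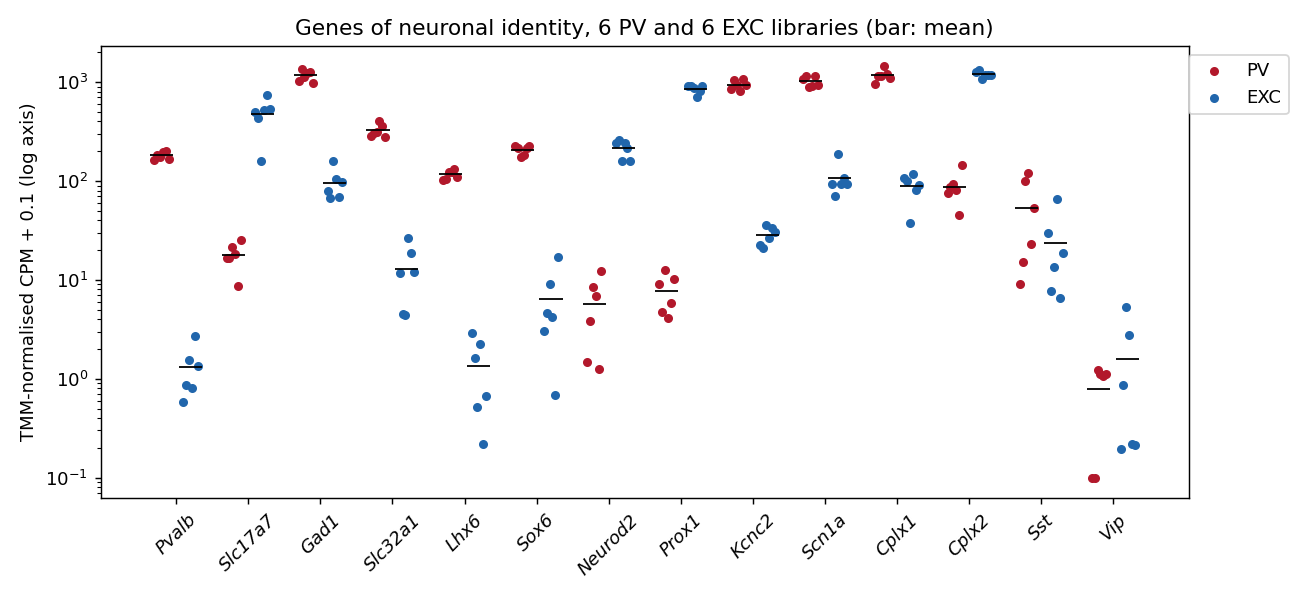
Levels of 14 genes in the 6 PV libraries (red, left of each pair) and the 6 EXC libraries (blue, right), as TMM-normalised CPM plus 0.1 on a log axis, with a bar at each group's mean. Pvalb, Gad1, Slc32a1, Lhx6, Sox6, Kcnc2, Scn1a and Cplx1 lie higher in every PV library than in any EXC library, Slc17a7, Neurod2, Prox1 and Cplx2 lie lower in every PV library, and Sst and Vip overlap.

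Genes of further cell types moved with the groups and are given here as measured values; their part in the results below was not tested. Granule cells of the dentate gyrus lie in the hippocampus and not in the cortex, yet their listed genes summed to between 381.3 and 552.2 CPM in PV libraries and between 2927 and 3842 CPM in EXC libraries. Of the 16 tested dentate genes, 15 were lower in PV and none was higher, and none was without reads in a group. Genes of ciliated ependymal cells, which line the ventricles, summed to between 99.76 and 377.3 CPM in PV libraries and between 9.556 and 37.81 CPM in EXC libraries. Of the 12 tested genes of that list, 11 were higher in PV, and Tmem212 had no read in any EXC library.

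Glial genes varied widely among the EXC libraries. The 10 oligodendrocyte genes summed to between 111 and 417.3 CPM in PV libraries and between 82.06 and 2775 CPM in EXC libraries, with 2667 CPM in EXC replicate 2 and 2775 CPM in EXC replicate 6. Of 6 tested oligodendrocyte genes, 3 were lower in PV, among them the myelin genes Mbp and Mal, and the count was 0 without EXC replicate 2, 0 without EXC replicate 6, 0 without both, and 1 without PV replicate 1, 3, 4 or 5. Astrocyte genes reached 3892 CPM in EXC replicate 6, against 224.7 to 771.7 CPM in PV libraries and 493.4 to 1575 CPM in the other EXC libraries, and the 1 astrocyte gene higher in PV became 4 without EXC replicate 6 and 0 without EXC replicate 1 or 2. Microglial genes summed to between 34.78 and 129.5 CPM in PV libraries and between 39.76 and 223.4 CPM in EXC libraries.

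**Figure D2:**
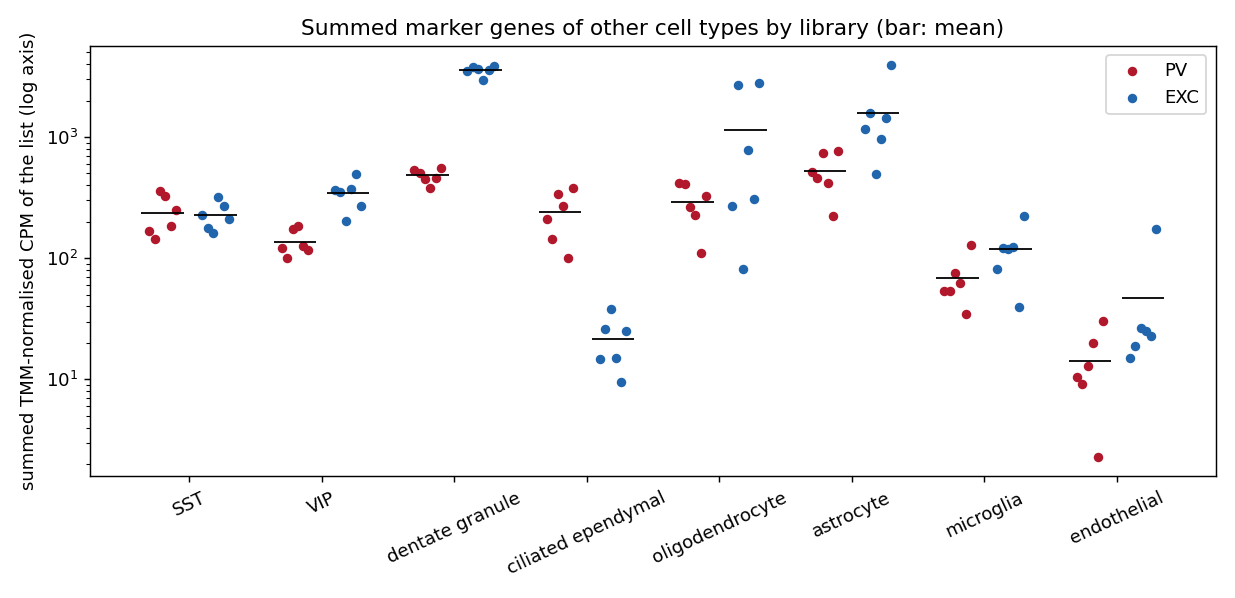
Summed TMM-normalised CPM of marker lists of 8 other cell types in each PV library (red, left of each pair) and each EXC library (blue, right), on a log axis with bars at the group means. The dentate granule list is higher in every EXC library, the ciliated ependymal list is higher in every PV library, and EXC replicates 2 and 6 reach 2667 and 2775 CPM on the oligodendrocyte list.

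Over the whole transcriptome, 5030 of 12178 genes tested differed between PV and EXC, which is 41.3%. PV was higher for 2353 genes, or 19.3% of those tested, and lower for 2677 genes, or 22.0%. The median log2 fold change over all tested genes was -0.05, over the genes higher in PV it was 1.21 and over the genes lower in PV it was -1.46. Changes of at least 4-fold were found for 503 genes higher in PV and 901 genes lower in PV. All 6 PV libraries lay above all 6 EXC libraries for 13.1% of the tested genes and below them for 14.4%. Counts of list members called, here and in every other paragraph, are to be read against these shares of all genes. Within POOL6188 alone, with 6 PV and 5 EXC libraries, 5685 of 12447 genes passed, or 45.7%. The calls of both fits had the same direction for 4929 genes and opposite directions for 0 genes, and 101 genes called with all 12 libraries were not called within the pool; the fits share 11 libraries.

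No gene was called for a difference by sex in the change between the sorts. The edgeR test of the subtype-by-sex term found 0 of 12178 genes at an adjusted p under 0.05, with 287 genes at an unadjusted p under 0.05 and a lowest adjusted p of 1. Only 2 of the EXC libraries were female, which limits the sizes that this test can detect.

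**Figure D3:**
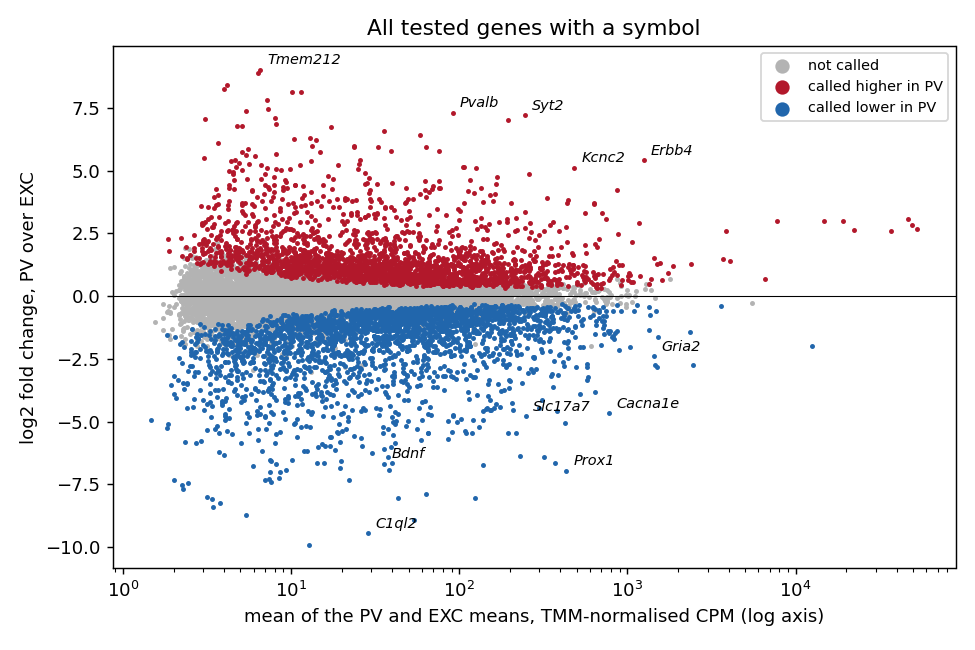
Log2 fold change, PV over EXC, against the mean of the PV and EXC mean levels (TMM-normalised CPM, log axis) for every tested gene with a symbol. Red points are genes called higher in PV, blue points genes called lower and grey points genes not called. Among the genes described in the text, Pvalb lies at 7.30 and Prox1 at -6.96.

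The 15 largest increases in PV, among genes with no overlap between the sorts, mixed genes of the PV class with genes of motile cilia. Syt2 (log2 fold change 7.20 ± 0.37) and Btbd11 (7.03 ± 0.22, edgeR adjusted p = 4.45e-11) were abundant, with means of 488 ± 141 and 389 ± 28.1 CPM in PV libraries, against 3.34 ± 1.95 and 3.02 ± 0.905 CPM in EXC libraries (SD, n = 6 each). Btbd11 encodes a protein with ankyrin repeats and a BTB domain. Lrrc38, an auxiliary subunit of large-conductance potassium channels, had 20.2 to 26.9 CPM in PV libraries and 358 reads in all of them, against 3 reads in all EXC libraries, a ratio of 362 with a 95% counting interval of 123 to 1760. The hormone genes Pthlh and Adm and the Wnt inhibitor gene Wif1 were also among the 15, as were Eya4 (6.57 ± 0.40), Mybpc1 (6.73 ± 0.76, and 8.84 without EXC replicate 6), Btn2a2 and Frmpd2. Frmpd2 had 163 reads in PV and 0 in EXC libraries, at least 165-fold higher in PV against a floor of 3 counts over the group. The cilia genes Tmem212, Cfap161, Stoml3 and Ccdc153, with Pvalb itself, completed the 15. Tmem212 varied from 3.25 CPM in PV replicate 5 to 25.3 CPM in PV replicate 6 and had no read in EXC libraries, at least 173-fold higher in PV. Eya4, by contrast, ranged only from 54 to 86.6 CPM in PV libraries and from 0.118 to 1.63 CPM in EXC libraries. Intervals and floors cover counting error only.

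The 15 largest decreases in PV included 6 dentate granule genes, C1ql2, Lct, Dsp, Tdo2, Smoc2 and Prox1. Prox1, a homeobox transcription factor of granule cells that interneurons from the caudal ganglionic eminence also express, ranged from 4.02 to 12.5 CPM in PV libraries and from 700 to 918 CPM in EXC libraries. Its log2 fold change was -6.96 ± 0.25 (edgeR adjusted p = 7.63e-11). Neurod1, a transcription factor of excitatory lineages, had at most 2.02 CPM in PV libraries and at least 33.4 CPM in EXC libraries. The antigen-presentation genes H2-Aa and H2-Ab1 and the chemokine receptor gene Ccr2 were also among the 15. H2-Aa had at most 0.755 CPM in any PV library, against 56.6 to 248 CPM in EXC libraries, and its log2 fold change was -7.88 ± 0.52 (edgeR adjusted p = 1.87e-08). The listed microglial genes did not separate the sorts in the same way, with 1 of 7 lower in PV, and 0 without PV replicate 1, 2, 4 or 5 or EXC replicate 2 or 4. The kinase gene Stk26 owed much of its level to 1 EXC library, with 67.3 CPM in EXC replicate 3, against at most 0.69 CPM in PV libraries and 2.59 to 6.08 CPM in the other EXC libraries. Its log2 fold change was -7.00 with all 12 libraries, -5.64 within POOL6188 and -8.87 without PV replicate 1. Ccnjl, Arsj, Stra6 and Rtn4rl2 completed the 15, and Ccnjl had 0 reads in PV and 472 in EXC libraries, at least 51.9-fold lower in PV.

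Pan-GABAergic genes, of GABA synthesis and loading and of interneuron identity, were higher in PV with 1 exception that did not pass the test. Of 16 tested pan-GABAergic genes, 15 were higher and none was lower (median log2 fold change 3.53), against 19.3% of all genes called higher. In 14 of the 16 every PV library lay above every EXC library, against 13.1% of all genes tested. Gad1, which makes GABA from glutamate, had 974, 1193 and 1360 CPM as lowest, median and highest in PV libraries, against 66.8, 88.2 and 158 CPM in EXC libraries (log2 fold change 3.68 ± 0.21, edgeR adjusted p = 3.92e-09). Slc32a1, which loads GABA into vesicles, had 280, 309 and 401 CPM in PV libraries, against 4.36, 11.8 and 26.6 CPM in EXC libraries (4.75 ± 0.38, edgeR adjusted p = 1.25e-07). The groups did not overlap for either. The gene of the other decarboxylase, Gad2, had 1893 to 2295 CPM in PV libraries, against 165 to 587 CPM in EXC libraries, with the highest EXC value in replicate 3. By RPKM, the deposited level per length of transcript, Gad1 made up 42.8% ± 2.26 of the summed decarboxylases in PV and 31.4% ± 6.07 in EXC libraries (SD, n = 6 each; exact two-sided permutation test, adjusted p = 0.0104 over 30 families). On a separate list of GABA and glutamate synthesis and transport, 8 of 14 tested genes were higher in PV, 1 was lower and 5 did not pass. Slc1a1, a neuronal glutamate transporter that is not on the pan-GABAergic list, averaged 237 CPM in PV and 255 CPM in EXC libraries. It did not pass the test (edgeR adjusted p = 0.491).

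Regulators of the medial ganglionic eminence lineage were mostly higher in PV and markers of excitatory neurons mostly lower, with exceptions in both. Regulators of the caudal lineage, which also gives rise to interneurons, were not higher. Of 9 tested regulators of the medial ganglionic eminence, 7 were higher in PV and 1 was lower. Lhx6, which is needed for the placement and fate of PV and SST interneurons in mice, ranged from 102 to 133 CPM in PV libraries and from 0.118 to 2.78 CPM in EXC libraries (log2 fold change 6.44 ± 0.41, edgeR adjusted p = 1.25e-08). Sox6, which acts after Lhx6 in mice, ranged from 174 to 225 CPM in PV libraries and from 0.59 to 16.9 CPM in EXC libraries. Zfhx3 was the 1 member lower in PV (-2.33 ± 0.43). Regulators of the caudal ganglionic eminence held 3 of 6 lower and none higher, and Adarb2, a marker of that lineage, averaged 1.05 CPM in PV and 46.1 CPM in EXC libraries.

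Among 19 tested excitatory markers, 14 were lower in PV and 3 were higher, with a median log2 fold change of -3.49. Neurod2 had 1.15, 5.22 and 12.1 CPM as lowest, median and highest in PV libraries, against 159, 229 and 261 CPM in EXC libraries, and the groups did not overlap. Nptx1, a secreted pentraxin that binds AMPA receptors, and Baiap2, a scaffold of the spine actin skeleton, changed by -5.06 ± 0.29 and -4.91 ± 0.35 on the log2 scale. The 3 members higher in PV were Cux2, Cux1 and Mef2c, transcription factors known both from upper cortical layers and from interneurons. Cux2 ranged from 67.5 to 109 CPM in PV libraries and from 5.4 to 14.9 CPM in EXC libraries (3.16 ± 0.23, edgeR adjusted p = 5.18e-08). Of 19 layer genes, 10 were lower and 3 higher in PV, and the layer markers Rorb and Etv1 did not pass the test, with 12.5 and 80.4 CPM in PV and 14.1 and 83.3 CPM in EXC libraries.

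PV libraries held more RNA of the potassium channels that end an action potential quickly. Of 17 tested Kv3 and fast-spiking channel genes, 11 were higher in PV and 3 were lower (median log2 fold change 1.59), while of 29 other potassium channel genes 5 were higher (3 without PV replicate 2) and 14 lower, with a median of -0.52. Kcnc2, a Kv3 subunit, had 817, 935 and 1065 CPM as lowest, median and highest in PV libraries, against 20.7, 28.3 and 36.1 CPM in EXC libraries (5.11 ± 0.18, edgeR adjusted p = 7.63e-11). Kcnc1, its partner subunit, had 618, 760 and 834 CPM in PV libraries, against 96.4, 106 and 157 CPM in EXC libraries (2.73 ± 0.15). Both lay apart without overlap, and Kcnc4 was lower in PV (-3.32 ± 0.25). The make-up of the Kv3 family differed between the sorts. By RPKM, Kcnc2 made up 55.3% of the family in PV and 9.02% in EXC libraries. The tested share, that of Kcnc1, was 30.9% ± 2.3 in PV and 25.2% ± 3.93 in EXC libraries (exact two-sided permutation test, adjusted p = 0.00812).

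Several subunits that modify other channels were also higher in PV. Kcng4 and Kcns3, silent subunits that alter other Kv channels, rose by 5.97 ± 0.65 and 5.26 ± 0.55 on the log2 scale, and Kcnmb2, a beta subunit of large-conductance channels, by 5.41 ± 0.55. Without EXC replicate 6 the value for Kcng4 was 6.85, without EXC replicate 4 that for Kcns3 was 5.95, and without EXC replicate 3 that for Kcnmb2 was 6.27. Kcnip1, a calcium-sensing partner of A-type channels, took 34.5% ± 2.82 of its family's summed RPKM in PV and 2.79% ± 2.51 in EXC libraries. On the other side, the A-type subunit gene Kcna4 averaged 9.95 ± 1.19 CPM in PV and 152 ± 61.8 CPM in EXC libraries, and the sodium-activated channel gene Kcnt2 averaged 6.21 ± 3.18 and 128 ± 39.7 CPM in the same order. Kcnma1, the pore of the large-conductance channel itself, did not pass the test (607 ± 106 CPM in PV, 671 ± 101 CPM in EXC, edgeR adjusted p = 0.538).

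Sodium channels showed an exchange of members. Scn1a, which encodes Nav1.1, had 882, 1003 and 1154 CPM as lowest, median and highest in PV libraries, against 69.9, 93.6 and 188 CPM in EXC libraries (3.31 ± 0.21, edgeR adjusted p = 1.3e-08). Scn2a, which encodes Nav1.2, had 110, 150 and 307 CPM in PV libraries, against 608, 667 and 955 CPM in EXC libraries (-2.05 ± 0.25). Scn8a, which encodes the Nav1.6 channel of both cell classes, overlapped, with 731 ± 92.8 CPM in PV and 621 ± 102 CPM in EXC libraries (edgeR adjusted p = 0.158). By RPKM, Scn1a made up 61.1% ± 2.91 of the 4 alpha subunits in PV libraries and 8.23% ± 3.56 in EXC libraries (exact two-sided permutation test, adjusted p = 0.00282). That adjusted p belongs to the smallest p that 6 against 6 libraries allow, 0.00216, and the following family shares with no other value carry it too. Of the 13 genes of the sodium channel list, 5 were higher and 5 lower in PV. Scn3b, a beta subunit, was lower (-3.74 ± 0.20), and Fgf12, a cytosolic modulator of sodium channels, was higher (2.58 ± 0.19).

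Calcium channel genes differed both in summed level and in make-up. Their sum ranged from 1290 to 1559 CPM in PV libraries and from 3130 to 4040 CPM in EXC libraries. Of 20 tested calcium channel genes, 14 were lower in PV and 4 higher (median log2 fold change -1.28). Cacna2d2, an auxiliary alpha2delta subunit, had 202, 223 and 255 CPM as lowest, median and highest in PV libraries, against 5.63, 7.69 and 15.3 CPM in EXC libraries (4.63 ± 0.24). Its paralog Cacna2d1 had 3.69, 11.1 and 19.2 CPM in PV libraries, against 364, 430 and 472 CPM in EXC libraries (-5.44 ± 0.33). Both pairs of groups lay apart, in opposite directions. Of the family's summed RPKM, Cacna2d2 took 91.3% ± 2.22 in PV and 2.48% ± 1.04 in EXC libraries, the widest of the 30 differences in share. Cacna1a, which encodes the P/Q-type pore, took 62.7% ± 3.5 of the Cav2 family in PV and 12.5% ± 1.82 in EXC libraries. Its own level differed less, with 172 ± 29.6 CPM in PV and 103 ± 24.7 CPM in EXC libraries (0.79 ± 0.16, edgeR adjusted p = 0.00131). Most of the difference in share lay in Cacna1e, the R-type pore, with 58.7 ± 10.7 CPM in PV and 1493 ± 147 CPM in EXC libraries (-4.66 ± 0.17). The T-type gene Cacna1h was also lower in PV (-4.97 ± 0.32).

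The presynaptic list was split, with 12 of 31 genes higher in PV, 11 lower, and 0.15 as the median log2 fold change. Syt2, a fast calcium sensor of vesicle fusion, had 339, 452 and 668 CPM as lowest, median and highest in PV libraries, against 0.623, 3.22 and 6.58 CPM in EXC libraries (edgeR adjusted p = 2.43e-09). Syt1, the main sensor of forebrain synapses, was high in both, with 1965 ± 129 CPM in PV and 1248 ± 250 CPM in EXC libraries (0.65 ± 0.15). By RPKM, Syt2 thus reached 13.9% ± 3.31 of the 3 fast sensors in PV and 0.168% ± 0.0929 in EXC libraries. Complexins, which clamp and promote fusion, were nearly fully exchanged. Cplx1 had 966 to 1438 CPM in PV and 37.6 to 118 CPM in EXC libraries, Cplx2 had 45.7 to 144 CPM in PV and 1070 to 1327 CPM in EXC libraries, and neither overlapped. Cplx1 made up 96.7% ± 1.31 of the complexin RPKM in PV and 14.1% ± 3.69 in EXC libraries. Among SV2 proteins of the vesicle membrane, Sv2b took 2.79% ± 1.25 of the RPKM in PV and 51.2% ± 9.95 in EXC libraries, while Sv2a was higher in PV (1.73 ± 0.22). Vamp1, a vesicle SNARE, and Rab3b, a vesicle GTPase, were higher in PV (3.69 ± 0.37 and 4.48 ± 0.32), and the vesicle gene Synpr was lower (-4.15 ± 0.27). Among the 8 members that did not pass the test were Pclo and Syp, with 1413 ± 69.2 CPM in PV and 1488 ± 136 CPM in EXC libraries for the active zone gene Pclo, and 1504 ± 191 CPM in PV and 1069 ± 405 CPM in EXC libraries for the vesicle gene Syp.

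**Figure D4:**
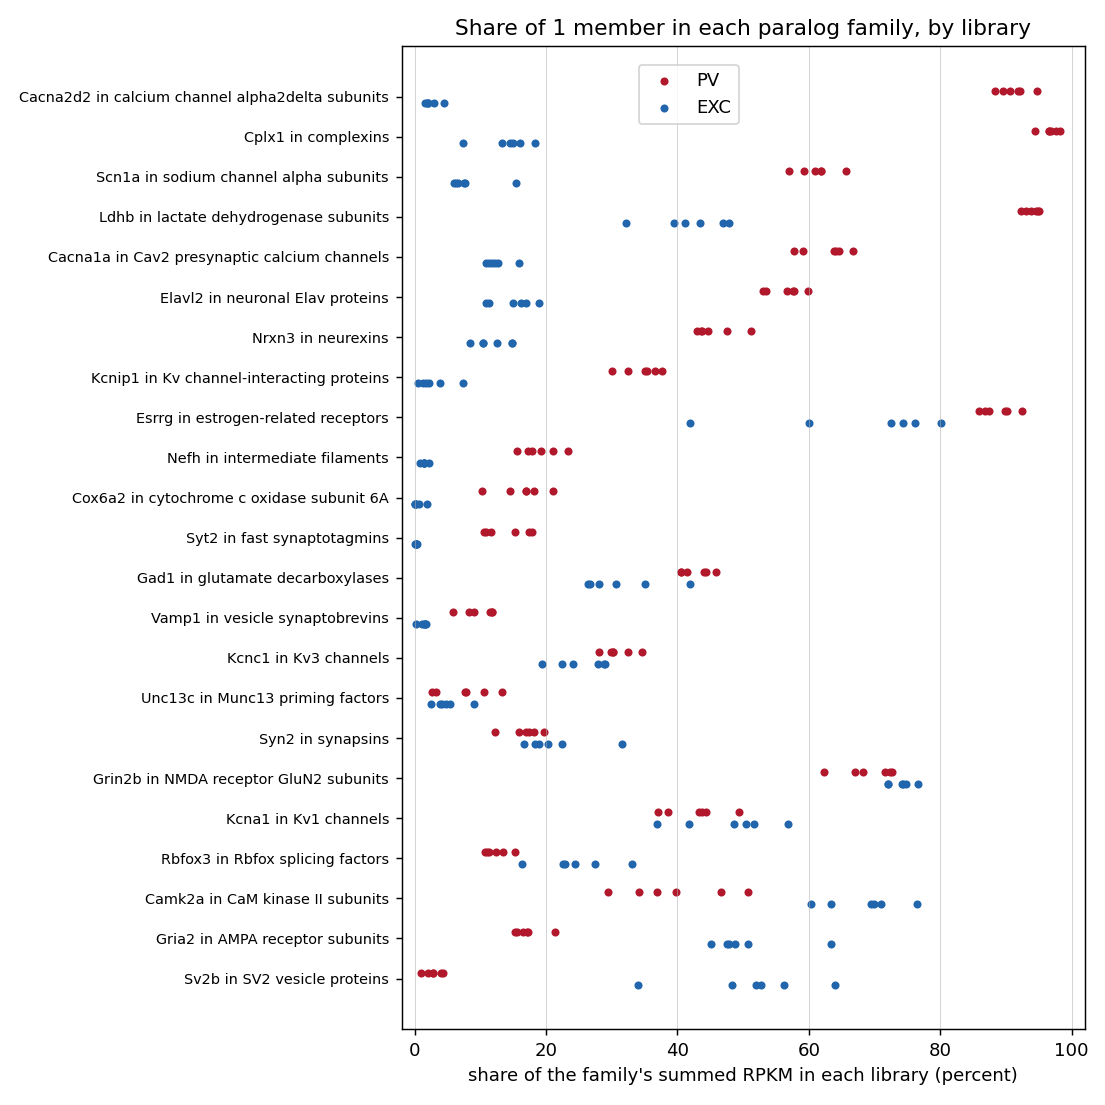
Share of 1 member in the summed RPKM of its paralog family, in percent, for 23 of the 30 families, with 1 point per PV library (red, upper) and EXC library (blue, lower), ordered by the difference in mean share. The Cacna2d2 share averages 91.3% in PV and 2.48% in EXC libraries, the Sv2b share 2.79% in PV and 51.2% in EXC libraries, and the shares of Unc13c, Syn2 and Kcna1 overlap.

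Of the 30 family shares tested, 27 differed at an adjusted p under 0.05, 22 of them higher in PV and 5 lower. The 3 that did not were Kcna1 among Kv1 channels (42.7% in PV, 47.7% in EXC, adjusted p = 0.195), Syn2 among synapsins (16.7% in PV, 21.3% in EXC, adjusted p = 0.051) and Unc13c among Munc13 priming factors (7.52% in PV, 4.91% in EXC, adjusted p = 0.197), each by the exact two-sided permutation test. The members were chosen with results of these libraries known, so that count is no measure of how common such exchanges are. A share within a library does not depend on how libraries were scaled.

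Receptors for glutamate were mostly lower in PV, and their subunits were exchanged. Of 16 tested ionotropic receptor genes, 9 were lower and 3 higher, with a median log2 fold change of -1.15, and of 7 metabotropic ones 6 were lower and none higher. Gria2, whose edited product makes AMPA receptors impermeable to calcium, had 367, 449 and 570 CPM as lowest, median and highest in PV libraries, against 1982, 2300 and 3191 CPM in EXC libraries (-2.41 ± 0.16, edgeR adjusted p = 2.14e-08). Gria4 had 298, 342 and 385 CPM in PV libraries, against 29.9, 38.5 and 66.7 CPM in EXC libraries (3.09 ± 0.19). The groups overlapped for neither. By RPKM, Gria2 was 17.2% ± 2.18 of the AMPA subunits in PV and 50.6% ± 6.51 in EXC libraries, and Gria4 was 21.1% in PV and 1.36% in EXC libraries. The other 2 genes higher in PV were the NMDA subunit gene Grin2d (44.5 ± 10.4 CPM in PV, 4.92 ± 3.7 CPM in EXC) and the kainate subunit gene Grik1 (38.5 ± 7.14 CPM in PV, 3.19 ± 3.19 CPM in EXC). Grin2a and Grin2b, the main GluN2 subunits of the adult cortex, were lower (-1.44 ± 0.15 and -1.45 ± 0.18), and the obligatory subunit gene Grin1 did not pass the test (281 ± 34.1 CPM in PV, 307 ± 67.7 CPM in EXC, edgeR adjusted p = 0.603). The metabotropic receptor gene Grm2 was lower (-4.74 ± 0.41, and -5.36 without PV replicate 4).

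The postsynaptic density behind those receptors was lower in PV as a list, with 19 of 27 genes lower and 3 higher and a median log2 fold change of -1.23. Camk2a, the kinase subunit most tied to spine plasticity, had 262, 344 and 576 CPM as lowest, median and highest in PV libraries, against 1286, 2516 and 3570 CPM in EXC libraries (-2.74 ± 0.26). The groups lay apart, and EXC replicate 3 was again the lowest EXC library. Nrgn, a calmodulin-binding spine protein, and Itpka, an actin-bundling kinase of spines, were lower by larger steps (-4.46 ± 0.42 and -5.82 ± 0.48). The 3 genes higher in PV were Camk2d (1.05 ± 0.21), Dlgap2 and Camk2g. Camk2g (0.53 ± 0.19, edgeR adjusted p = 0.041) no longer passed without PV replicate 1, 2, 4 or 5 or EXC replicate 2 or 6, at adjusted p between 0.058 and 0.11. The share of Camk2a among CaM kinase II RPKM was 39.6% ± 7.91 in PV and 68.4% ± 5.76 in EXC libraries. Dlg2, a scaffold of both kinds of neuron, did not pass the test (549 ± 67.5 CPM in PV, 561 ± 110 CPM in EXC, edgeR adjusted p = 0.952).

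GABA receptors were neither higher nor lower as a list, with 6 of 14 higher, 4 lower and a median log2 fold change of 0.10. The alpha subunit genes Gabra5 and Gabra2 were lower in PV (-3.14 ± 0.18 and -3.74 ± 0.40). Gabrd, the delta subunit of receptors outside synapses, was higher (148 ± 28.8 CPM in PV, 25.1 ± 10.7 CPM in EXC).

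Genes of mitochondrial energy supply were higher in PV almost to the last member. Of 49 tested nuclear genes of oxidative phosphorylation, 46 were higher, none was lower and 3 did not pass the test, against 19.3% of all genes called higher. The median log2 fold change was 1.25. In 39 of the 49 every PV library lay above every EXC library, against 13.1% of all genes tested. Summed over the list, levels ranged from 7838 to 9170 CPM in PV libraries and from 1534 to 4465 CPM in EXC libraries, with EXC replicate 3 the lowest. Cox5a, a cytochrome c oxidase subunit, had 121, 138 and 182 CPM as lowest, median and highest in PV libraries, against 15.3, 31.6 and 54.8 CPM in EXC libraries (2.11 ± 0.25, edgeR adjusted p = 7.94e-06). Cox6a2, the subunit isoform best known from heart and skeletal muscle, had 16.2 to 38.9 CPM in PV libraries and 0 to 1.36 CPM in EXC libraries (6.22 ± 0.68, and 7.35 without EXC replicate 6). The isoform made up 16.3% ± 3.62 of the Cox6a RPKM in PV and 0.454% ± 0.721 in EXC libraries. The genes that did not pass included Ndufs3 (11.3 CPM in PV, 5.76 CPM in EXC, edgeR adjusted p = 0.0501, and 0.0429, 0.0321 and 0.0315 without PV replicate 1 or EXC replicate 4 or 5) and Uqcrb (6.33 CPM in PV, 4.41 CPM in EXC, edgeR adjusted p = 0.342, and 0.0496 without EXC replicate 3).

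Of 13 tested mitochondrial regulators, 8 were higher and 2 lower in PV, against 19.3% of all genes higher and 22.0% lower. Ppargc1a, a coactivator of mitochondrial genes, had 547, 622 and 737 CPM as lowest, median and highest in PV libraries, against 60.5, 90.7 and 117 CPM in EXC libraries (2.95 ± 0.15, edgeR adjusted p = 2.43e-09). Esrrg, an estrogen-related receptor with which the coactivator works, had 257, 298 and 327 CPM in PV libraries, against 7.72, 23.3 and 31 CPM in EXC libraries (3.79 ± 0.28). Both lay apart, while the paralog coactivator gene Ppargc1b (83.2 ± 13.3 CPM in PV, 75.1 ± 18.4 CPM in EXC) and Tfam, which packages mitochondrial DNA (33.7 ± 8.87 CPM in PV, 19.7 ± 8.48 CPM in EXC), did not pass the test. Tfam passed without PV replicate 4 or EXC replicate 4 (edgeR adjusted p = 0.0418 and 0.0213). The 2 members lower in PV were the transcription factor gene Gabpa (25.1 ± 4.45 CPM in PV, 49.5 ± 18.4 CPM in EXC, edgeR adjusted p = 0.00683) and the coactivator gene Pprc1 (11.7 ± 2.23 CPM in PV, 21.7 ± 4.75 CPM in EXC, edgeR adjusted p = 0.00734). Ldhb and Ldha, the lactate dehydrogenase subunits, were exchanged, with Ldhb at 94% ± 1.11 of their RPKM in PV and 41.8% ± 5.75 in EXC libraries. Glycolysis genes were mixed, with 7 of 18 higher and 4 lower.

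Estrogen-related receptors bind AAGGTCA, often preceded by TC, and this element was searched on both strands of the promoter windows of RefSeq, which run from 250 bases before to 50 bases after the gene start. The letters TCAAGGTCA were found in 2 of the 37 oxidative phosphorylation genes with a window, in 1 of the 23 PV interneuron genes with a window and in 126 of 27025 genes in all, or 0.466%. The shorter AAGGTCA, which every TCAAGGTCA contains, was found in the same 2 and 1 genes and in 5.38% of all genes, against 5.41% of the oxidative phosphorylation genes. These matches are descriptions and carry no test, and the motif was chosen with the Esrrg result known. The 3 windows are printed because the genes were higher in PV and hold the longer element, and each sequence is given 5′ to 3′ on the strand of the gene (GRCm38.p6). The element TCAAGGTCA lies on the opposite strand in all 3, so capitals mark its reverse complement, TGACCTTGA. Syt2 lies on the plus strand (chr1:134646362-134646661), and Atp5g3 (chr2:73911277-73911576) and Sdhd (chr9:50603800-50604099), subunits of ATP synthase and succinate dehydrogenase, lie on the minus strand.
Syt2: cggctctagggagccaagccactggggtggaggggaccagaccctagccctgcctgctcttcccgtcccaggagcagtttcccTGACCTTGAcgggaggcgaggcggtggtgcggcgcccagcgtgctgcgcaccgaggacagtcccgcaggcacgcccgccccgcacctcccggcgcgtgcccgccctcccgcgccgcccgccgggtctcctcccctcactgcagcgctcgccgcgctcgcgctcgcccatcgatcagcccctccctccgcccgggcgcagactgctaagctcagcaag
Atp5g3: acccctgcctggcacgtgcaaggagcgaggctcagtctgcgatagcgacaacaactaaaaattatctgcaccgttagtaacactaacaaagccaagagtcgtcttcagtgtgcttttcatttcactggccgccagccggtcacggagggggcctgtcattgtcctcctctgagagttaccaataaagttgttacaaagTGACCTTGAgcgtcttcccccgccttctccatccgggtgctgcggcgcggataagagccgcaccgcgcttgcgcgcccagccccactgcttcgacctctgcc
Sdhd: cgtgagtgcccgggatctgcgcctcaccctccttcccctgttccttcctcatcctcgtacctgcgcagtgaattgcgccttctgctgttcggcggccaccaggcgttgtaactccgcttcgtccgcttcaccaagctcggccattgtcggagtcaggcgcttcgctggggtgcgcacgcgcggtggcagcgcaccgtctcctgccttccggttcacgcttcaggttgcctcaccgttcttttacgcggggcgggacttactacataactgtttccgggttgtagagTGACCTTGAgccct

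RNA from the mitochondrial genome was also higher in PV, but uneven among its libraries. Its share of all reads averaged 35.07% ± 13.27 in PV and 7.41% ± 2.6 in EXC libraries (SD, n = 6 each), a difference of 27.67 percentage points (exact two-sided permutation test, p = 0.00216, and p = 0.00433 within POOL6188). Of 8 tested genes, 7 were higher in PV. CYTB, the cytochrome b gene, ranged from 26671 CPM in PV replicate 5 to 157709 CPM in PV replicate 6, against 6458 to 17465 CPM in EXC libraries (2.84 ± 0.38). The PV library with the highest CYTB level had the fewest reads, 1548907, and the one with the lowest had the most, 4653119, and the part of depth in this result was not tested. With mitochondrial genome reads removed before scaling, 2364 genes were higher and 2707 lower in PV. The other 5 listed genes were too low to test although they lie on the same genome, such as COX2 with 5.52 ± 4.24 CPM in PV and 1.28 ± 1.44 CPM in EXC libraries. Gapdh, which has many processed copies in the mouse genome, likewise had 1.03 ± 0.234 CPM in PV and 1.07 ± 0.692 CPM in EXC libraries. No source used here says how reads that fit several places were counted, so levels of genes with near-identical copies are uncertain in both sorts.

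Ion pumps and transporters were divided. Atp2b4, a plasma membrane calcium pump, and Slc8a2, a sodium-calcium exchanger, were lower in PV (-4.42 ± 0.37 and -5.23 ± 0.30). Of the whole transporter list of 18 genes, 3 were higher (5 without EXC replicate 5) and 7 lower.

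**Figure D5:**
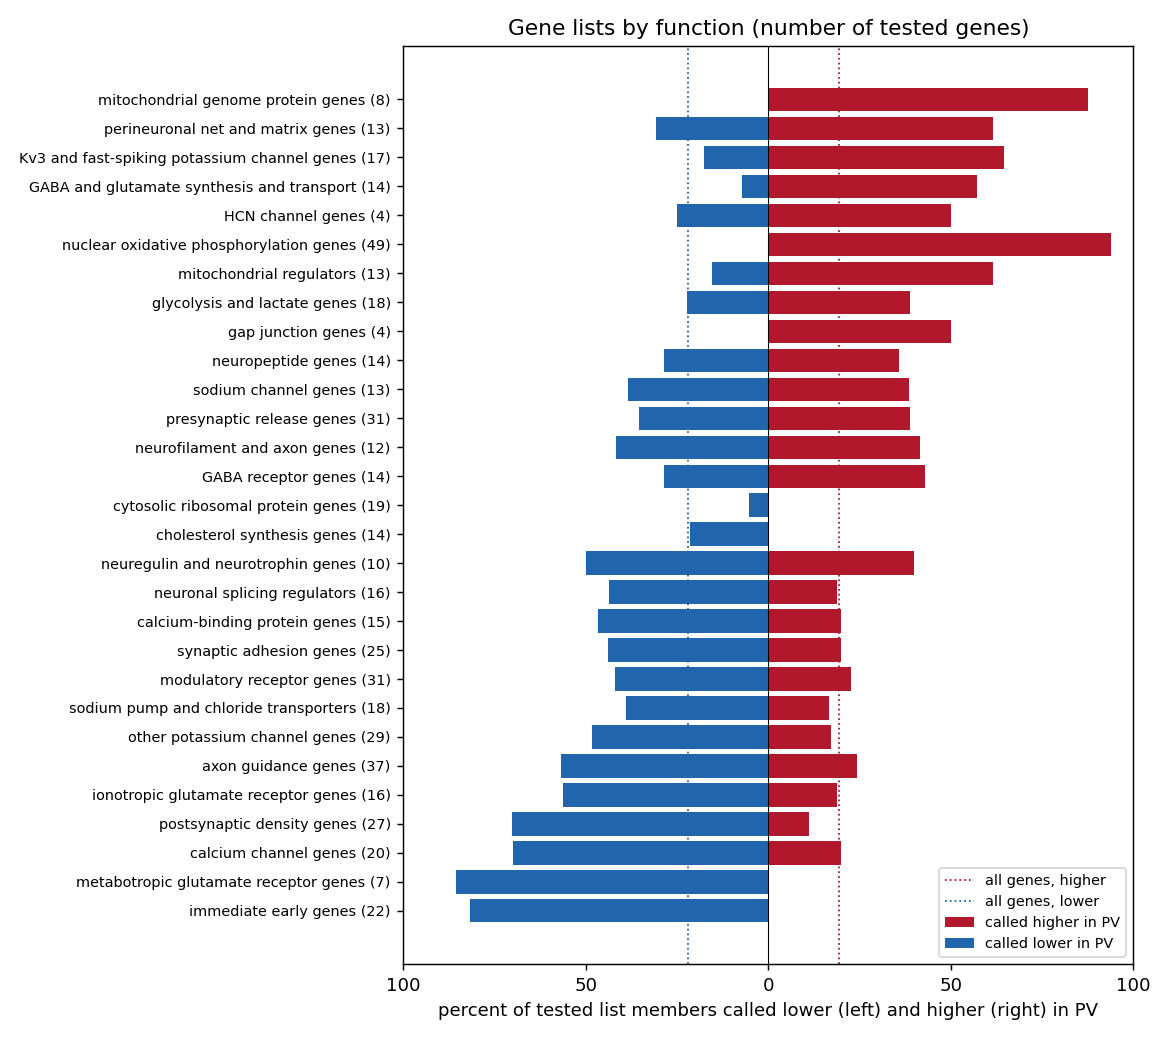
Percent of the tested members of each functional gene list that were called lower in PV (blue, left) and higher in PV (red, right), ordered by median log2 fold change, with the number of tested genes in brackets and dotted lines at the shares of all tested genes, 22.0% lower and 19.3% higher. The oxidative phosphorylation list has 46 of 49 genes higher and none lower, and the immediate early list has 18 of 22 genes lower and none higher.

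The extracellular matrix of perineuronal nets was divided. Of 13 tested genes, 8 were higher and 4 lower in PV (median log2 fold change 2.33). Hapln4, a link protein of nets, had 222, 262 and 291 CPM as lowest, median and highest in PV libraries, against 10.6, 41.6 and 45.2 CPM in EXC libraries (2.88 ± 0.27). Adamts15 and Adamts8, proteases that cut net proteoglycans, rose by 5.08 ± 0.33 and 4.77 ± 0.59 on the log2 scale, and Mme, a membrane peptidase, by 4.09 ± 0.20. Other matrix genes went the other way, with Ncan at 132 ± 15.5 CPM in PV and 430 ± 122 CPM in EXC libraries, and the tenascin gene Tnr at 372 ± 39.5 and 713 ± 149 CPM in the same order. Neurofilaments of thick axons differed by subunit. Nefh, the heavy chain, took 19.1% ± 2.81 of its family's RPKM in PV and 1.43% ± 0.47 in EXC libraries, while Nefl, the light chain, was lower in PV (-0.95 ± 0.23) with overlapping groups. Ank1, which anchors membrane proteins to the cytoskeleton, averaged 244 ± 39.5 CPM in PV and 7.14 ± 3.61 CPM in EXC libraries.

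Of 25 synaptic adhesion genes, 11 were lower and 5 higher in PV, and of 37 axon guidance genes, 21 were lower and 9 higher, against 22.0% lower and 19.3% higher of all genes tested. The median log2 fold changes were -0.50 and -0.89, against -0.05 for all genes. Nrxn3, a presynaptic neurexin, was higher, at 718 ± 66.4 CPM in PV and 237 ± 39.6 CPM in EXC libraries. C1ql3, a secreted synapse organiser that is also on the dentate list, was lower (-6.64 ± 0.35), and Il1rapl2, a membrane organiser of synapses, was higher (3.89 ± 0.34). Nrp1, a semaphorin receptor, had at most 10.2 CPM in PV libraries and at least 80.4 CPM in EXC libraries. Robo1, a Slit receptor, and its ligand gene Slit2 were higher in PV (2.01 ± 0.16 and 1.82 ± 0.36). Gjd2, which forms the electrical synapses of interneurons, had 37.5 to 59.3 CPM in PV libraries and 0.118 to 2 CPM in EXC libraries.

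Of 10 tested neuregulin and neurotrophin genes, ligands and receptors together, 4 were higher and 5 lower in PV (3 lower without PV replicate 4). Erbb4, the neuregulin receptor of interneurons, had 2046, 2338 and 2876 CPM as lowest, median and highest in PV libraries, against 34.6, 51.1 and 113 CPM in EXC libraries (5.42 ± 0.30, edgeR adjusted p = 3.31e-09). Bdnf, the neurotrophin of excitatory neurons, had 0, 0.495 and 3.03 CPM in PV libraries, against 48.2, 63.9 and 121 CPM in EXC libraries (-6.67 ± 0.48, edgeR adjusted p = 4.36e-08). Its receptor gene Ntrk2 was somewhat higher in PV (735 ± 51.5 CPM in PV, 393 ± 134 CPM in EXC, 0.94 ± 0.20). The neuregulin genes Nrg1 and Nrg2 were lower in PV (-1.21 ± 0.36 and -1.15 ± 0.35), Nrg1 not passing without PV replicate 2 or 4 (edgeR adjusted p = 0.0544 and 0.051), Nrg4 was higher (1.09 ± 0.19), and Nrg3 did not pass the test (edgeR adjusted p = 0.398).

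Among 14 tested neuropeptide genes, 5 were higher and 4 lower in PV, beside 19.3% higher and 22.0% lower of all genes tested. Tac1, the substance P precursor, averaged 150 ± 39.8 CPM in PV and 2.61 ± 1.1 CPM in EXC libraries, and Crhbp, which binds corticotropin-releasing hormone and is also on the SST list, averaged 64.3 ± 9.92 and 1.16 ± 1.35 CPM in the same order. The neurexophilin gene Nxph1 ranged from 450 to 578 CPM in PV libraries and from 2.6 to 44 CPM in EXC libraries. The opioid precursors Pdyn and Penk were lower (-3.70 ± 0.57, or -4.44 without PV replicate 3, and -2.13 ± 0.35), and Npy did not pass the test, with 38.9 ± 14.5 CPM in PV and 35.4 ± 18.2 CPM in EXC libraries. Of 31 receptors for modulatory transmitters, 13 were lower and 7 higher in PV, beside the same 22.0% and 19.3% of all genes. The 4 largest increases were the adrenergic receptor gene Adra1a (3.32 ± 0.53), the delta opioid receptor gene Oprd1 (3.21 ± 0.23), the serotonin receptor gene Htr2a (2.52 ± 0.34) and the muscarinic receptor gene Chrm2 (2.26 ± 0.42). The largest decreases included the dopamine receptor gene Drd5 (-6.56 ± 0.67) and the neuropeptide Y receptor gene Npy1r (-5.85 ± 0.47). Without PV replicate 1 or 2 the Drd5 value was -7.30 and -7.18, and without PV replicate 3 the Npy1r value was -6.76.

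Immediate early genes, which neurons switch on within minutes of activity, were lower in PV. Of 22 tested genes, 18 were lower and none was higher, with a median log2 fold change of -2.26, against 22.0% of all genes called lower. Their sum ranged from 296.4 to 428.9 CPM in PV libraries and from 1104 to 2150 CPM in EXC libraries. Egr3 had 3.63, 7.84 and 20.2 CPM as lowest, median and highest in PV libraries, against 222, 248 and 364 CPM in EXC libraries (-4.94 ± 0.38). Arc had 0.956, 3.04 and 5.06 CPM in PV libraries, against 17, 43.5 and 102 CPM in EXC libraries (-3.89 ± 0.53). The groups did not overlap for either. Among the genes that did not pass were Jund (15.4 ± 4.72 CPM in PV, 14.4 ± 2.26 CPM in EXC) and Dusp1 (58.8 ± 11.7 CPM in PV, 41.4 ± 28.8 CPM in EXC, edgeR adjusted p = 0.0659). Dusp1 was higher in PV without PV replicate 1 or 2 or EXC replicate 6 (edgeR adjusted p = 0.0441, 0.0357 and 0.014).

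Splicing regulators were divided by family member. Elavl2, a neuronal RNA-binding protein, took 56.4% ± 2.67 of its family's RPKM in PV and 14.8% ± 3.19 in EXC libraries, and its level was 449 ± 24.1 CPM in PV and 45.6 ± 13.4 CPM in EXC libraries (3.35 ± 0.18). Rbfox3, which encodes the marker NeuN, was lower in PV (58.7 ± 8.58 CPM in PV, 213 ± 57.1 CPM in EXC, -1.85 ± 0.20), and Khdrbs2 was lower by a larger step (-4.50 ± 0.75). In 2 housekeeping lists few genes were called. Of 33 listed cytosolic ribosomal protein genes, 19 could be tested. Among these, 1 was lower in PV, Rps6 with -2.33 ± 0.60, and the list's median was -0.14. All 33 together summed to only 428.7 to 598 CPM in PV libraries and 319.7 to 641.1 CPM in EXC libraries. Levels this low limit what the list can show, and the part of reads that fit several places was not tested. Of 14 cholesterol synthesis genes, 3 were lower and none higher, with a median of -0.19.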

How the data were processed

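RNA-seq of 12 sorted-neuron libraries, 6 PV and 6 EXC, was used; the 12 libraries of the other subtypes entered 1 alternative only. The deposited tables give, per gene and library, a raw read count and an RPKM value, both made by the authors, per the file headers. Reads were aligned with GSNAP to GRCm38, per the submitters' processing notes; for the versions, the strand setting and the treatment of reads that fit several places no source used here gives a value, so reads of overlapping or antisense genes cannot be told apart. Gene IDs were matched to RefSeq and GENCODE symbols, and 31126 of 36528 listed genes had one. Counts were tested in R 4.3.3 with edgeR 4.0.16 (quasi-likelihood test, TMM factors, default filter on low counts, sex as covariate, Benjamini-Hochberg adjustment over 12178 genes, threshold 0.05); the steps were first tested on simulated data. Replicates were checked for duplicates by chi-square tests of their counts and none were found. RPKM served for shares within 30 paralog families of at least 50 reads, compared by exact two-sided permutation tests (Python 3.11.15, scipy 1.17.1). Total counts of 1548907 to 8504337 reads per library limit what can be seen of low genes.

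Genes are named by rule: the 15 largest changes in each direction (adjusted p under 0.05 with all 12 libraries and in POOL6188, at least 10 CPM in the higher sort, no overlap, a symbol not of a predicted gene), for each list up to 4 called members a direction and 2 not called, the family members, and Pvalb, Slc17a7, Gad1, Gad2, Slc32a1, Sst and Vip. COX2 and Gapdh, and the promoters of Atp5g3 and Sdhd, fall outside the rule and were chosen after their values were seen. The members, lists, families and comparisons were chosen with earlier results of these data known. Alternatives were POOL6188 alone, all 24 libraries, DESeq2 1.42.0, other scaling, filters and depth, no sex term, robust empirical Bayes, removal of mitochondrial genome counts, and each library left out in turn. Some genes that the rule names are not reported here.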

Additional observations from a re-analysis of the deposited data

Results flagged for a closer look

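In each group of 6 libraries, a value was picked out when the gap to its nearest neighbour took up more of the group's range than Dixon's 95% critical value allows, that is, when 1 library lay far from the others. Of 404 groups looked at, 53 values met this, or 13.1%, where chance gives about 1 in 20, and genes with near-zero levels, where 1 library alone has reads, are among them. EXC replicate 3 held 15 of the 53. No cause was tested. PV replicate 1 stood apart with 13.8 CPM for Mal, 0.69 CPM for Ccr2, 0.69 CPM for Stk26, 186 CPM for Syn2 and 21.3% for the Gria2 share of AMPA receptor subunits by RPKM. PV replicate 2 stood apart with 1.25 CPM for H2-Ab1. PV replicate 3 stood apart with 0.377 CPM for C1ql2, 0.377 CPM for Stra6, 7.92 CPM for Pdyn and 4.53 CPM for Npy1r. PV replicate 4 stood apart with 0.335 CPM for Tdo2 and 182 CPM for Cox5a. PV replicate 6 stood apart with 6.07 CPM for Dsp, 1.01 CPM for Smoc2, 2.02 CPM for Neurod1, 1.01 CPM for Arsj and 428.9 CPM for the summed immediate early genes. EXC replicate 1 stood apart with 0.192 CPM for Btn2a2. EXC replicate 2 stood apart with 1.22 CPM for Btbd11. EXC replicate 3 stood apart with 188 CPM for Scn1a, 0.831 CPM for Ccdc153, 67.3 CPM for Stk26, 19.5 CPM for Ccnjl and 102 CPM for Adarb2. It also had 5.61 CPM for Kcnmb2, 159 CPM for Cacna1h, 4.36 CPM for Gabrd, 201 CPM for Ncan, 145 CPM for Nefl and 312 CPM for Nrxn3. It also had 6.02 CPM for Drd5, 71.5 CPM for Elavl2, 63.3% for the Gria2 share of AMPA receptor subunits by RPKM and 15.4% for the Scn1a share of sodium channel alpha subunits by RPKM. EXC replicate 4 stood apart with 0.353 CPM for Lrrc38, 0.353 CPM for Stoml3, 209 CPM for H2-Ab1, 138 CPM for Etv1 and 2927 CPM for the summed dentate granule cell genes. EXC replicate 5 stood apart with 955 CPM for Scn2a, 151 CPM for Cacna1a, 2.48 CPM for Vamp1, 66.7 CPM for Gria4, 31.1 CPM for Pprc1, 121 CPM for Bdnf and 0.176% for the Vamp1 share of vesicle synaptobrevins by RPKM. It also had 15.9% for the Cacna1a share of Cav2 presynaptic calcium channels by RPKM. EXC replicate 6 stood apart with 178 CPM for Mal, 1.82 CPM for Mybpc1, 11.9 CPM for Grin2d, 1.36 CPM for Cox6a2 and 132 CPM for Slit2. It also had 3892 CPM for the summed astrocyte genes.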

How the results depend on the processing

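With the alternatives listed above, the numbers of genes higher and lower in PV stayed within 1.5 times 2353 and 2677, at 1990 to 2711 higher and 2359 to 2974 lower with 1 library left out. Leaving out EXC replicate 3 is the same fit as POOL6188 alone and gave both upper ends, so these are not separate checks. DESeq2 called 2511 higher and 2921 lower, the fit of all 24 libraries 3030 and 3811, no filter on low counts 2428 and 3810, libraries thinned to the total of the shallowest, which leaves reads of nuclear genes unequal, 1981 and 2220, and the fit without EXC replicates 2 and 6 1945 and 2351. Upper-quartile scaling gave 2639 and 2402, with a shift of 0.085 in the median log2 fold change of all genes. The sex term gave 0 calls under RLE scaling, the 5 CPM filter and every left-out library. Of 159 genes named with a fit, 11 changed their call under at least 1 alternative. None reversed where it was called in the main fit or the alternative, and direction was not compared where neither called it. Thinning lowered the ependymal genes higher in PV to 7, and no filter raised the oligodendrocyte genes lower in PV to 8. Between 27 and 28 families passed with 1 library left out. The Grin2b share no longer passed with shares of counts instead of RPKM (difference -2.64 percentage points, exact permutation test, adjusted p = 0.0742), and the Kcna1 share then passed (-12.6, adjusted p = 0.0026), as it did within POOL6188 (-7.17, adjusted p = 0.0464). The Syn2 share passed without PV replicate 6, EXC replicate 1 or EXC replicate 4. The causes were not tested. No paired analysis was possible because the labels give the libraries no replicate numbers. Low read totals limit genes near the floor of 3 counts, whose fitted changes move with single reads.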
